A study of Mus musculus with 9 samples.

Results

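Genes that encode receptors for glutamate and GABA, the main excitatory and inhibitory transmitters of the brain, were followed in RNA from mouse brain. The tissue came from around a photothrombotic infarct in the stroke groups, and from sham mice otherwise. The genes were matched by symbol and not by any measured value, but with earlier results of these data known. The set held AMPA receptor subunits (Gria1 to Gria4), NMDA receptor subunits (Grin), kainate receptor subunits (Grik), delta receptors (Grid), metabotropic glutamate receptors (Grm), GABA-A receptor subunits including the rho subunits (Gabra, Gabrb, Gabrg, Gabrr, Gabrd, Gabre, Gabrp and Gabrq) and GABA-B receptors (Gabbr). The symbols matched 47 of the 55401 genes in the deposited table, 26 for glutamate and 21 for GABA. Of these, 39 had a mean of at least 0.5 FPKM (read fragments scaled to transcript length and library size) over the 9 libraries and were tested among 16740 genes, 24 of them for glutamate and 15 for GABA.

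The libraries fall into 3 groups of 3, all from mice labelled wild type (WT) and all at day 28. Sham mice received ultrapure water. PT mice had a photothrombotic stroke, made by illuminating the brain surface after a light-sensitive dye so that vessels clot, and received water too. Pushen mice had the same stroke and were given the drug preparation Pushen by gavage from 24 h after surgery, at doses labelled 391, 392 and 393 mg/kg in replicates 1, 2 and 3. The sources used here give no strain, sex or age. Nor do the labels say that replicates are separate animals. The p-values only set a group difference against the spread among these samples, and that spread may be technical.

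AMPA, NMDA and kainate receptors are tetramers that open a cation channel when glutamate binds. AMPA receptors carry most fast excitation, and NMDA receptors add a calcium current that plasticity depends on. Metabotropic glutamate receptors signal through G proteins. GABA-A receptors are pentameric chloride channels, in the cortex most often built of alpha, beta and gamma subunits, and GABA-B receptors are obligate pairs of their 2 gene products that act through G proteins. Astrocytes and oligodendrocyte precursors carry some of the same subunits as neurons.

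Library depth ran from 57437342 to 75100133 counts, of which the 47 genes took 321174 to 504767, so counting error was small beside the spread between libraries for the abundant subunits. The receptor genes made up 6780 to 6948 CPM (counts scaled to library size) in the sham libraries, 4510, 5050 and 5759 CPM in PT 1, 2 and 3, and 5701, 5546 and 5804 CPM in Pushen 1, 2 and 3. No sham library overlapped either stroke group. The labels give brain as the tissue and their extraction protocol speaks of retina. Of 14 photoreceptor markers, 2 passed the expression filter, with a summed level of 3.76 to 7.19 FPKM, against 1487 to 2394 FPKM for 15 pan-neuronal markers. Grm6, the glutamate receptor of retinal ON bipolar cells, had at most 4 counts in any library. PT 1 and Pushen 2 stood apart: striatal neuron markers summed to 599.7 FPKM in PT 1 and to at most 142.6 FPKM in the other libraries, and choroid plexus markers summed to 551.6 FPKM in PT 1 and 634.2 FPKM in Pushen 2, against at most 153.2 FPKM elsewhere.

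Stretches of 250 bases before the transcription start, from RefSeq on build GRCm38.p6, were at hand for 32 of the 47 genes, and for Gabrr2 the 137 that lie before its gene model are shown. A set of 7 short motifs was searched there on both strands. Grin2c is an NMDA subunit that was not called. Gabrr2 had a low level, with every stroke library above sham in FPKM. It passed the expression filter only through the stroke groups, so this is a description. The 4 stretches shown are those of the AMPA subunit Gria2, the obligatory NMDA subunit Grin1, Gabrr2 and Grin2c, the most GC-rich of them. Each runs 5′ to 3′ on the gene's strand, with a matched motif in capitals.
Gria2, chr3:80802836-80803085, minus strand: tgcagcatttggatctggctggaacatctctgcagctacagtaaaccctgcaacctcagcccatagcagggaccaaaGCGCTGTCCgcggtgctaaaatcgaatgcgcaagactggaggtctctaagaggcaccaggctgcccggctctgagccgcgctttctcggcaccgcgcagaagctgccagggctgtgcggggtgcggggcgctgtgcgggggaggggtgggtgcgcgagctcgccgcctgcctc
Grin1, chr2:25319188-25319437, minus strand: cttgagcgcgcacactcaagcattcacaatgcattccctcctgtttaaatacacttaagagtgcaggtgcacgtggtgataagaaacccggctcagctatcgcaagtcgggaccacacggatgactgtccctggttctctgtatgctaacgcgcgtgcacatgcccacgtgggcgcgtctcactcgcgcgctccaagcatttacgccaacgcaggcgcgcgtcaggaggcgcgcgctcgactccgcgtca
Grin2c, chr11:115267244-115267493, minus strand: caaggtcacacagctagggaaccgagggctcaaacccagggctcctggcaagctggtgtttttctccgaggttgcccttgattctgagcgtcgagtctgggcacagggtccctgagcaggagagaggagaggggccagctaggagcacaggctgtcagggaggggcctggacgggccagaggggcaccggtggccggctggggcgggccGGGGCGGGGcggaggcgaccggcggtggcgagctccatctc
Gabrr2, chr4:33062862-33062998, plus strand: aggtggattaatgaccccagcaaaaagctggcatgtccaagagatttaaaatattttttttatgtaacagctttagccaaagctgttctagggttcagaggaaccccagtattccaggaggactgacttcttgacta
The capitals in Gria2 are the right arm of the RE1 element, GGACAGCGC, read on the opposite strand. RE1 is the site of REST, a repressor of neuronal genes. That arm occurred in the upstream stretch of 0.363% of all genes and of no other receptor gene searched, and the left arm, TTCAGCACC, occurred in 0.348% of genes and in Grm2. The capitals in Grin2c are a GC box, GGGGCGGGG, found in 11.8% of genes and in 5 of the 32, namely Gabre, Gabrg3, Grik5, Grin2c and Grm2. The NRF1 palindrome occurred in 0.877% of genes and in Gabrb1. TATAAA occurred in 14.3% of genes and in Gabra3, Gabrb2 and Grin3b. The cyclic AMP response element TGACGTCA (1.77% of genes) and the EGR motif GCGGGGGCG (2.93%) occurred in none of the 32. The Gabrr2 stretch held none of the 7 motifs and no CpG, the Grin1 stretch held none of the 7 and 27 CpG, and G and C made up 40.9% and 58.8% of their bases. A match is a match of letters only. Gene bounds given with the values below are those of the deposited table, on build GRCm38; 35 of the 47 genes have the same bounds in GENCODE M21.

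The first comparison asks how receptor transcripts differ in the tissue after stroke from sham tissue at day 28. In PT, 22 of the 39 tested receptor genes (56.4%) were lower than in sham and 1 was higher. The higher gene, Gabrr2, passed the expression filter only through the stroke groups, so its call is a description. Among all 16740 tested genes, 11.8% were lower and 19.1% higher (30.9% in all), by the same edgeR quasi-likelihood test at a Benjamini-Hochberg adjusted p under 0.05. The median log2 fold change was -0.40 over the receptor genes and -0.003 over all genes, and 37 of the 39 had a negative value. At an unadjusted p under 0.05 there were 27 receptor genes, beside 42.9% of all genes. Of the glutamate receptor genes 12 of 24 fell (median -0.37), and of the GABA receptor genes 10 of 15 fell and 1 rose (median -0.45). In scaled counts, 26 of the 39 had no overlap between the PT and sham libraries, all 23 called genes among them. The share of all genes without overlap was not computed, so this is a description only. In bulk tissue, fewer cells of a type and less RNA per cell cannot be told apart.

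In sham tissue the transcripts of Gabbr1, Grin1, Gabbr2 and Gria1 were among the most abundant per length, with Gabbr1 at 99.8 ± 5.02 FPKM (SD, n = 3), Grin1 at 61.8 ± 5.02, Gabbr2 at 61.04 ± 1.20 and Gria1 at 49.3 ± 3.28. Grin1 and Gabbr2 did not differ beyond these spreads. Summed over a family, the 4 AMPA genes came to 121.6 to 129.9 FPKM in sham, 86.3 to 114.5 in PT and 109.2 to 117.97 in Pushen. The 7 NMDA genes summed to 106.3 to 116.9 FPKM in sham, 79.5 to 102.3 in PT and 90.6 to 95.4 in Pushen, and the 8 metabotropic genes to 47.8 to 50.3, 36.2 to 43.3 and 41.2 to 44.6 FPKM. In each of these 3 families sham lay apart from both stroke groups. The kainate genes summed to 58.9 to 66 FPKM in sham, 52.5 to 64.1 in PT and 49.1 to 62.6 in Pushen, with all groups overlapping.

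**Figure D1:**
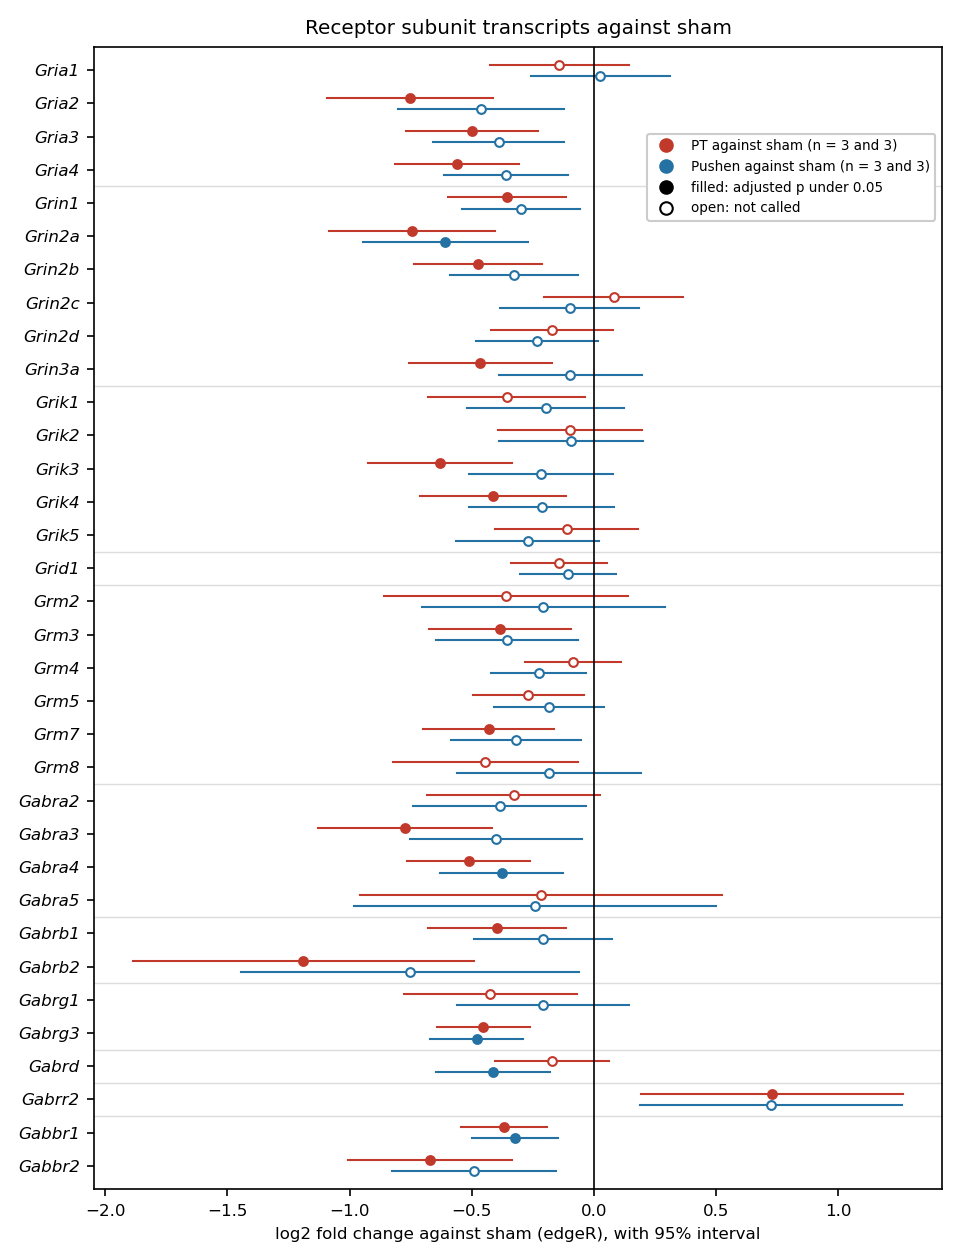
Log2 fold change of 34 tested receptor genes in PT (red) and in Pushen (blue) against sham, with its 95% interval from edgeR; grey lines part the receptor families and filled points have an adjusted p under 0.05. Nearly all points lie left of zero, Gabrb2 (-1.19 in PT) farthest, and Gabrr2 (0.73 in PT) lies farthest to the right.

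Of the AMPA receptor subunits, 3 of 4 fell in PT. Gria1 (chr11:57011387-57330244), an AMPA subunit inserted at synapses during plasticity, stood at 46.7, 53 and 48.2 FPKM in Sham 1, 2 and 3, at 43.01, 42 and 54.3 FPKM in PT 1, 2 and 3, and at 60.1, 50 and 47.5 FPKM in Pushen 1, 2 and 3. The 3 groups overlapped, and the PT value was -0.14 ± 0.13 (SE) on the log2 scale (edgeR adjusted p = 0.421, 95% interval -0.43 to 0.14). Gria2 (chr3:80681450-80802835), the subunit whose edited form makes AMPA receptors impermeable to calcium, measured 35.9, 32.6 and 32.2 FPKM in the sham libraries, 16.2, 20.5 and 25.3 FPKM in the PT libraries and 25.3, 24.8 and 26.4 FPKM in the Pushen libraries. Every sham library exceeded every library of the stroke groups, and PT 1 was lowest. Its log2 fold change in PT was -0.75 ± 0.15 (edgeR adjusted p = 0.00626). For Gria3 (chrX:41400854-41676592), an AMPA subunit that pairs with Gria2, the FPKM values were 26.4, 27.4 and 24.8 in sham, 16.2, 19.9 and 21.7 in PT and 19.8, 20.3 and 22.7 in Pushen. It fell by 0.50 ± 0.12 on the log2 scale in PT (edgeR adjusted p = 0.0135), with sham above both other groups in every library. Gria4 (chr9:4417896-4796234), a subunit prominent in interneurons and early development, stood at 18.7, 16.9 and 16.5 FPKM in Sham 1, 2 and 3, at 10.8, 12.8 and 13.1 FPKM in PT 1, 2 and 3, and at 12.8, 14.2 and 15.6 FPKM in Pushen 1, 2 and 3. The groups were again apart, and the log2 fold change in PT was -0.56 ± 0.11 (edgeR adjusted p = 0.00641). None of these 3 calls was lost when any 1 of the 9 libraries was left out.

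The make-up of the AMPA family differed between sham and the stroke groups. Gria1 made up 39% ± 2.17 (SD, n = 3) of the summed FPKM of Gria1 to Gria4 in sham, 47.1% ± 2.87 in PT and 46.4% ± 4.35 in Pushen. Gria2 made up 26.6% ± 1.5 in sham, 20.8% ± 1.79 in PT and 22.6% ± 1.05 in Pushen. For both shares the sham libraries lay apart from the 6 stroke libraries, and PT and Pushen overlapped. The lowest stroke value of the Gria1 share was 42.3% in Pushen 3, against a highest sham value of 40.8% in Sham 2. On counts not divided by length the Gria1 share was 25.1% ± 1.75, 32.4% ± 2.63 and 31.4% ± 3.56. Shares of few libraries were described and not tested.

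**Figure D2:**
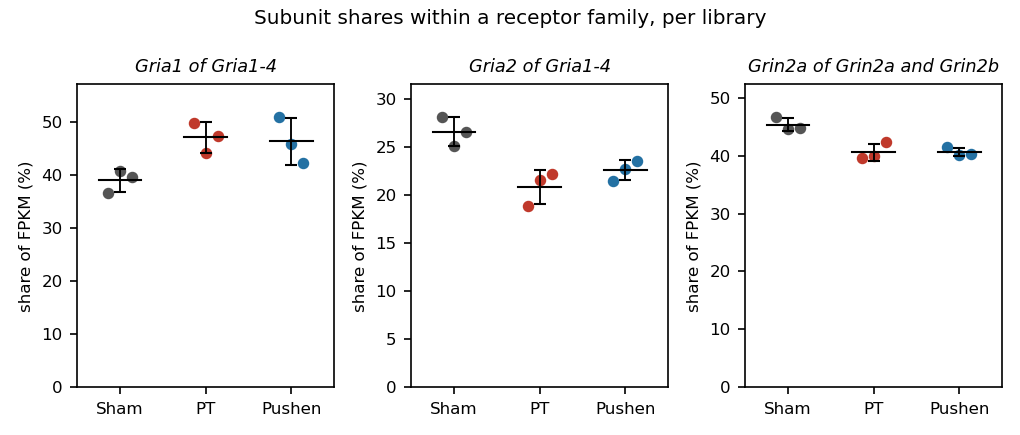
Share (%) of 1 subunit in the summed FPKM of its family, with 1 point per library and the group mean with SD (n = 3). Sham and PT do not overlap in any of the 3 panels; the Gria1 share averaged 39% in sham and 47.1% in PT.

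Among the NMDA receptor subunits, 4 of 6 tested genes fell in PT. For Grin1 (chr2:25291181-25319187), the subunit that every NMDA receptor needs, the FPKM values were 57.4, 67.3 and 60.7 in sham, 45.6, 48.6 and 56.3 in PT and 53.2, 48.7 and 55.9 in Pushen. Sham exceeded the stroke groups in every library, by a narrow margin for Sham 1 over PT 3. Its log2 fold change in PT was -0.36 ± 0.11 (edgeR adjusted p = 0.0328). Grin2a (chr16:9567898-9995560), a glutamate-binding subunit that dominates in the mature cortex, stood at 15.8, 14.8 and 14.3 FPKM in Sham 1, 2 and 3, at 7.81, 8.37 and 11.7 FPKM in PT 1, 2 and 3, and at 10.8, 10.6 and 9.44 FPKM in Pushen 1, 2 and 3. All sham values lay above all others, and Grin2a had the largest fall of the family, -0.74 ± 0.15 on the log2 scale (edgeR adjusted p = 0.00657). Grin2b (chr6:135713233-136173511), a subunit dominant in development with slower currents, measured 18.1, 18.4 and 17.7 FPKM in the sham libraries, 11.9, 12.6 and 16 FPKM in the PT libraries and 15.3, 15.9 and 13.98 FPKM in the Pushen libraries. PT 3 was the stroke library closest to sham, the groups were apart, and the log2 fold change was -0.47 ± 0.12 (edgeR adjusted p = 0.0152). Grin3a (chr4:49661611-49845744), a glycine-binding subunit that lowers calcium entry, stood at 2.34, 2.27 and 2.13 FPKM in Sham 1, 2 and 3, at 1.38, 1.88 and 1.82 FPKM in PT 1, 2 and 3, and at 2.0, 2.25 and 2.35 FPKM in Pushen 1, 2 and 3. PT lay below sham, while Pushen reached the sham range. The PT value was -0.46 ± 0.13 (edgeR adjusted p = 0.0258).

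For Grin2c (chr11:115249169-115267243), a subunit found in astrocytes and cerebellar granule cells, the FPKM values were 9.75, 10.9 and 11.8 in sham, 9.67, 12.6 and 13.4 in PT and 10.9, 9.97 and 10.8 in Pushen. Its groups overlapped, and the PT value was 0.08 ± 0.13 on the log2 scale (edgeR adjusted p = 0.657). Grin2d, typical of interneurons, ranged from 2.51 to 3.56 FPKM and gave -0.17 ± 0.11 (edgeR adjusted p = 0.264). Grin3b did not pass the expression filter, with 0 to 71 counts a library, and 32.1% of its exonic bases are shared with a neighbouring gene, Tmem259. Grin2a made up 45.3% ± 1.17 (SD, n = 3) of the summed FPKM of Grin2a and Grin2b in sham, 40.6% ± 1.47 in PT and 40.6% ± 0.71 in Pushen, and the sham libraries lay above all 6 others. Leaving out 1 library ended 3 calls in PT. Grin1 was lost without Sham 1, 2 or 3, PT 1, PT 2 or Pushen 1 (edgeR adjusted p 0.0529 to 0.113), Grin2b without Sham 1 or PT 2 (0.0515 and 0.0536) and Grin3a without Sham 1 or Sham 2 (0.0841 and 0.0679). Of the exonic bases of Grin1, 13.5% are shared with the antisense transcript Grin1os, and whether reads were counted by strand is not stated.

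Of the kainate receptor genes, 2 of 5 fell in PT. Grik3 (chr4:125490700-125714173), a low-affinity kainate subunit, measured 11.4, 12.5 and 11.9 FPKM in the sham libraries, 7.87, 8.68 and 7.51 FPKM in the PT libraries and 10.1, 9.09 and 12.98 FPKM in the Pushen libraries. The 3 PT libraries lay below all others, and Pushen 3 was the highest of the 9. Its log2 fold change in PT was -0.63 ± 0.13 (edgeR adjusted p = 0.00751). No omitted library ended the call, and centring within bins of transcript length did (0.0986). Grik4 (chr9:42518135-42944493), a high-affinity subunit that needs partners of Grik1 to Grik3, stood at 4.60, 4.88 and 4.41 FPKM in Sham 1, 2 and 3, at 3.89, 3.15 and 3.80 FPKM in PT 1, 2 and 3, and at 4.80, 3.51 and 4.23 FPKM in Pushen 1, 2 and 3. PT lay below sham, Pushen spanned both, and the PT value was -0.41 ± 0.13 (edgeR adjusted p = 0.0414). That call was lost without Sham 1, 2 or 3, PT 1, PT 2 or Pushen 3 (edgeR adjusted p 0.0514 to 0.12). The partner Grik5 was the most abundant kainate gene, at 32.0 to 47.4 FPKM, and its groups overlapped, with a PT value of -0.11 ± 0.13. Grik1 (-0.36 ± 0.14, edgeR adjusted p = 0.0857) and Grik2 (-0.10 ± 0.13, 0.592) were not called. Grid1, a delta receptor, does not open to glutamate and bridges synapses through cerebellins. It stood at 8.03 to 9.69 FPKM and gave -0.14 ± 0.09 (edgeR adjusted p = 0.239).

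Among the metabotropic glutamate receptors, Grm3 and Grm7 were lower in PT. Grm3 (chr5:9485541-9725170), a Gi-coupled receptor of neurons and astrocytes, stood at 10.4, 8.03 and 10.9 FPKM in Sham 1, 2 and 3, at 7.62, 8.06 and 7.72 FPKM in PT 1, 2 and 3, and at 7.22, 8.27 and 8.48 FPKM in Pushen 1, 2 and 3. In FPKM, Sham 2 (8.03) lay below PT 2 (8.06), while the scaled counts did not overlap, and the PT value was -0.38 ± 0.13 (edgeR adjusted p = 0.0498). Grm7 (chr6:110645581-111566067), a Gi-coupled receptor of presynaptic terminals, measured 7.42, 6.81 and 7.43 FPKM in the sham libraries, 4.61, 5.73 and 6.37 FPKM in the PT libraries and 6.01, 6.03 and 6.13 FPKM in the Pushen libraries. Its groups were apart, and the PT value was -0.43 ± 0.12 (edgeR adjusted p = 0.0235). Leaving out any library but Sham 2 ended the call of Grm3 (edgeR adjusted p 0.0536 to 0.154), and leaving out Sham 1, Sham 3 or PT 2 that of Grm7 (0.0535 to 0.0775). Grm5 gave -0.27 ± 0.10 (0.0706), Grm8 -0.44 ± 0.17 (0.0719), Grm2 -0.36 ± 0.22 (0.241) and Grm4 -0.09 ± 0.09 (0.479). Grm2 was at 5.43 FPKM in PT 1 and at 8.48 to 11.8 FPKM in the other 8 libraries.

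Of the GABA-A receptor subunits, Gabrb2 gave the largest log2 fold change in PT. Gabrb2 (chr11:42419757-42629028), a beta subunit, part of the pocket that binds GABA, measured 17.8, 18.02 and 17.3 FPKM in the sham libraries, 3.86, 9.44 and 10.9 FPKM in the PT libraries and 11.9, 11.02 and 10.1 FPKM in the Pushen libraries. Sham libraries were highest throughout, and PT 1 lay far below PT 2 and PT 3. Its log2 fold change, -1.19 ± 0.31, was the largest of the 39 (edgeR adjusted p = 0.0193). Gabra6, a cerebellar subunit, had at most 4 counts in any library.

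Without PT 1, the library with raised striatal markers, the log2 value of Gabrb2 in PT was -0.85 (edgeR adjusted p = 0.00217). Its call was lost without Sham 1 or Sham 2 (edgeR adjusted p = 0.0568 and 0.0511). PT 1 was the lowest PT library for 26 of the 39 genes, PT 2 for 9 and PT 3 for 4. Over all receptor genes, 19 were lower without PT 1, and 16 were lower and 0 higher without both PT 1 and Pushen 2. Among all 16740 genes, 1170 were lower without PT 1, and 1011 were lower and 2454 higher without both. With all 9 libraries, 1974 of all genes were lower.

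**Figure D3:**
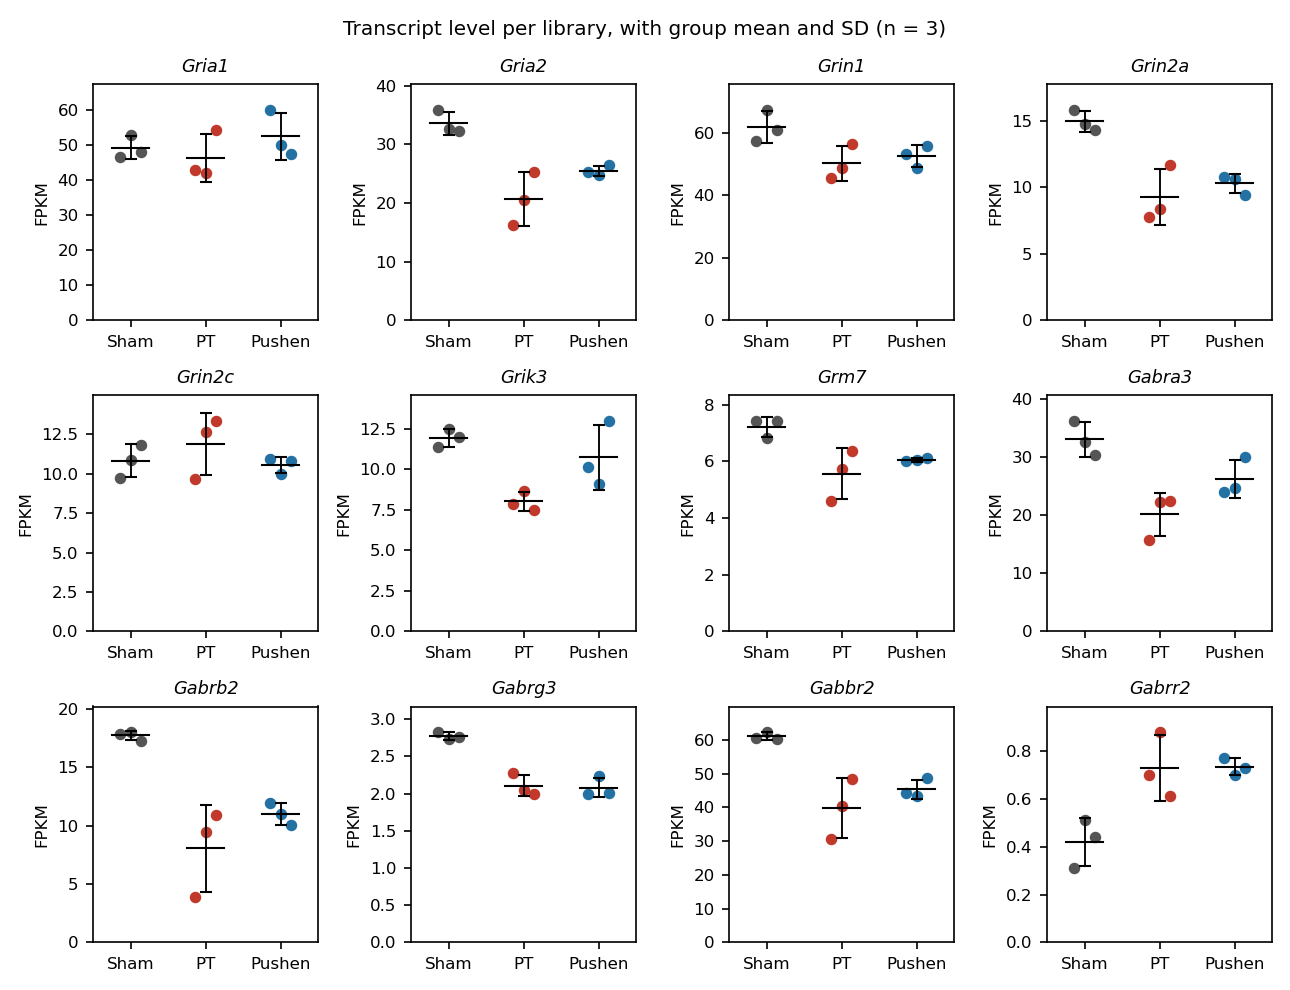
FPKM of 12 receptor genes in each library (points), with group mean and SD (n = 3). Gabrb2 stands at 17.3 to 18.0 FPKM in sham and at 3.86 to 10.9 FPKM in PT, and Gria1 overlaps between groups. Gabrr2 lies above sham in every stroke library, which is a description only.

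Gabra3 (chrX:72432681-72656848), an alpha subunit strong in early development and deep cortex, measured 36.3, 32.7 and 30.4 FPKM in the sham libraries, 15.8, 22.2 and 22.4 FPKM in the PT libraries and 24.03, 24.7 and 30.04 FPKM in the Pushen libraries. The order was PT lowest, Pushen between and sham highest, with no overlap of any pair of groups, and the PT value was -0.77 ± 0.16 (edgeR adjusted p = 0.00676). Gabra3 lies on the X chromosome between Gabre and Gabrq, neither of which passed the filter. Gabra4 (chr5:71569749-71658308), an alpha subunit of extrasynaptic receptors together with delta, stood at 17.96, 15.5 and 14.4 FPKM in Sham 1, 2 and 3, at 11.2, 10.8 and 12.9 FPKM in PT 1, 2 and 3, and at 12.7, 12.4 and 13.5 FPKM in Pushen 1, 2 and 3. Sham exceeded all stroke libraries, and the PT value was -0.51 ± 0.11 (edgeR adjusted p = 0.00917). For Gabrb1 (chr5:71658113-72149037), a beta subunit whose gene starts head to head with Gabra4, the FPKM values were 8.35, 6.98 and 7.55 in sham, 5.18, 6.09 and 6.81 in PT and 6.96, 7.59 and 6.22 in Pushen. PT was below sham and Pushen overlapped both. Its PT value was -0.40 ± 0.12 (edgeR adjusted p = 0.0394), and the call was lost without Sham 1, Sham 3, PT 1, PT 2 or Pushen 1 (edgeR adjusted p 0.0592 to 0.132). Their neighbours in the cluster on chr5:70751047-72149037, Gabra2 at 2.37 to 3.83 FPKM and Gabrg1 at 1.45 to 2.32 FPKM, gave -0.33 ± 0.16 (0.141) and -0.42 ± 0.16 (0.0679) and were not called.

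Gabrg3 (chr7:56716465-57387188), a minor gamma subunit, measured 2.83, 2.73 and 2.76 FPKM in the sham libraries, 2.27, 2.05 and 2.0 FPKM in the PT libraries and 2.0, 2.23 and 2.01 FPKM in the Pushen libraries. PT and Pushen lay together below a tight sham group. Its PT value, -0.45 ± 0.08, had an edgeR adjusted p of 0.00463, and with values centred within bins of transcript length, a setting added after the data were seen, it was not called (0.244). Gabra5, a subunit of tonic inhibition, ranged from 7.17 to 18.1 FPKM with overlap of all groups and gave -0.22 ± 0.33 (0.649), the widest interval of the family (-0.96 to 0.52). For Gabrd (chr4:155384980-155398112), the subunit of extrasynaptic receptors, the FPKM values were 22.8, 22.8 and 24.3 in sham, 24.7, 19.2 and 20.7 in PT and 17.03, 18.6 and 19.3 in Pushen. PT overlapped sham, with a value of -0.17 ± 0.10 (edgeR adjusted p = 0.235), while all Pushen libraries lay below sham. Gabre had 6 to 69 counts a library, Gabrq 8 to 30, and Gabrp none.

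Gabrr2 (chr4:33062999-33095865), a rho subunit of slowly desensitising receptors, best known in retina, stood at 0.31, 0.51 and 0.44 FPKM in Sham 1, 2 and 3, at 0.70, 0.88 and 0.61 FPKM in PT 1, 2 and 3, and at 0.77, 0.70 and 0.73 FPKM in Pushen 1, 2 and 3. Both stroke groups lay above sham. It passed the filter only through the stroke groups, since its sham mean is under 0.5 FPKM, so its call is given as a description. The log2 fold change in PT was 0.73 ± 0.24 (edgeR adjusted p = 0.0449) on 51 to 161 counts a library, and the call was lost when any library but PT 3 was left out (edgeR adjusted p 0.0529 to 0.137). The neighbouring Gabrr1 had 0 to 18 counts and Gabrr3 0 to 12, and neither was tested.

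Both GABA-B receptor genes fell in PT. Gabbr1 (chr17:37045966-37075067), the GABA-binding partner of the pair, measured 98.9, 95.3 and 105 FPKM in the sham libraries, 78.3, 80.5 and 82.3 FPKM in the PT libraries and 82.2, 80.5 and 87.6 FPKM in the Pushen libraries. Gabbr1 had the highest mean level of the 47 genes. Every sham library exceeded every stroke library, and the PT value was -0.37 ± 0.08 (edgeR adjusted p = 0.00801). Gabbr2 (chr4:46662305-46991873), the partner that couples to the G protein, stood at 60.6, 62.4 and 60.1 FPKM in Sham 1, 2 and 3, at 30.7, 40.5 and 48.3 FPKM in PT 1, 2 and 3, and at 44.2, 43.4 and 48.7 FPKM in Pushen 1, 2 and 3. Sham was again above both groups, PT 1 was lowest, and the PT value was -0.67 ± 0.15 (edgeR adjusted p = 0.01). Neither call was lost when 1 library was left out. In both genes the 3 groups ordered as PT, Pushen and sham by their means, as they did in 29 of the 39 genes. The share of all genes with that order was not computed, and none of the 39 was called between Pushen and PT.

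Pan-neuronal markers fell beside the receptor genes, and other neuronal lists were mixed. Of 15 pan-neuronal markers, 11 were lower in PT and none higher, with a median log2 fold change of -0.45. Their summed level was 2267 to 2394 FPKM in sham, 1487 to 1869 FPKM in PT and 1730 to 2133 FPKM in Pushen, and none of them was near 0. Of 12 excitatory neuron markers, 2 were called lower in PT and 0 higher (median -0.46). Of 12 inhibitory neuron markers, 5 were called lower and 0 higher (median -0.36). The striatal neuron markers went the other way, with 1 of 13 tested called lower and 5 higher (median 1.68). That rise was uneven between libraries and largest in PT 1. The mean of the 14 striatal markers stood at 2.61, 0.805 and -0.11 against sham in PT 1, 2 and 3 (log2 of FPKM + 0.5). Library by library, the median receptor gene stood at -0.51, -0.41 and -0.26 against the sham mean in PT 1, 2 and 3 (log2 of scaled CPM). The mean of the pan-neuronal markers stood at -0.65, -0.42 and -0.31 (log2 of FPKM + 0.5). In Pushen 1, 2 and 3 the receptor medians were -0.32, -0.36 and -0.20 and the marker means -0.37, -0.39 and -0.12. Of 12 microglial markers, 10 were higher in PT, from a summed 86.0 to 104.1 FPKM in sham to 506.8 to 817.2 FPKM in PT and 346.0 to 630.7 FPKM in Pushen. Of 12 astrocyte markers, 11 were higher in PT, with summed levels of 516.3 to 569.6 FPKM in sham, 870.8 to 1211 FPKM in PT and 757.9 to 982.2 FPKM in Pushen. The part of the glial markers in the receptor values was not tested.

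Counts scaled to the pan-neuronal markers, in place of all genes, gave the receptor level per neuronal transcript. On that scale the median of all genes moved to 0.52 in PT, and the direction of 12 of the 22 falls turned. Of the falls, 2 were still called, Gabrb2 at -0.72 (edgeR adjusted p = 0.0411) and Gabra3 at -0.26 (0.0435), while Gria2 (-0.25, 0.064) kept a negative value and was not called. Called higher, on a scale where the median gene is at 0.52, were 4 genes, Gabrr2 (1.25), Grin2c (0.58), Grm4 (0.45) and Grid1 (0.38), and Gria1 stood at 0.37 (0.057). Among all 16740 genes, 9299 were called higher and 102 lower on that scale, so these 4 show no rise particular to receptor genes. In all, 20 of the 23 calls were lost on that scale, Gabrb2, Gabra3 and Gabrr2 being the exceptions.

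**Figure D4:**
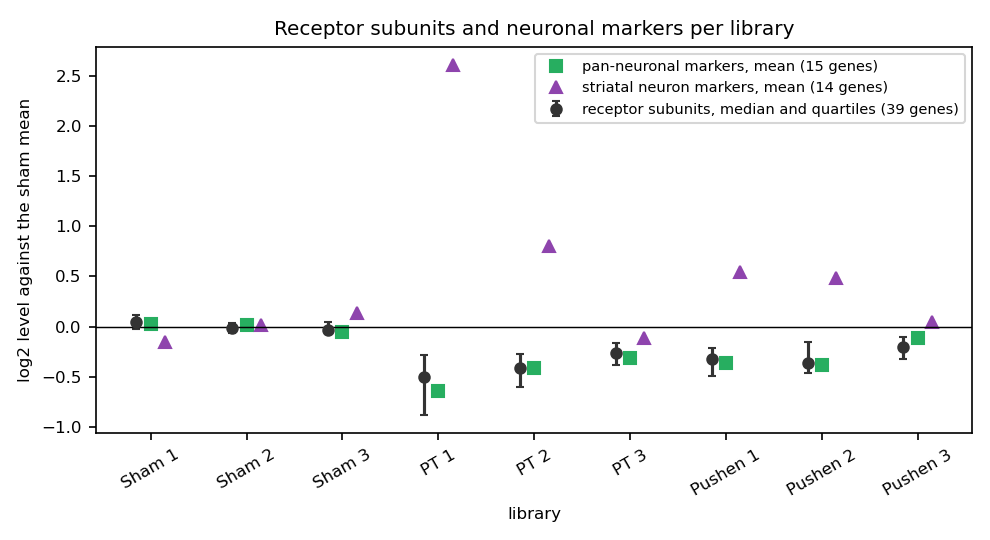
Median and quartiles of the 39 tested receptor genes in each library (black, log2 of scaled CPM against the sham mean) beside the mean of 15 pan-neuronal (green) and 14 striatal (purple) markers (log2 of FPKM + 0.5 against the sham mean). Receptor genes and pan-neuronal markers lie below zero in all 6 stroke libraries, and the striatal markers reach 2.61 in PT 1.

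The second comparison asks whether receptor transcripts differ between Pushen and PT. None of the 39 genes was called by edgeR (0 of 39, against 0.0% of all tested genes), and DESeq2 and limma called none of them either. Among all 16740 genes, DESeq2 called 48 (20 higher and 28 lower) and limma 0. At an unadjusted p under 0.05 there were 5, among them Grik3, Grin3a and Gabra3 with positive and Gabrd with a negative value, beside 6.49% of all genes. Grik3 had the largest of these differences, 0.41 on the log2 scale with a 95% interval of 0.12 to 0.71, and all 3 Pushen libraries above all PT libraries. Grin3a gave 0.37 (0.07 to 0.66) and Gabra3 0.37 (0.02 to 0.73), also without overlap, and Gabrd gave -0.24 (-0.47 to -0.01). The smallest edgeR adjusted p among the 39 was 0.707. A positive difference was found for 30 of the 39 genes, with a median of 0.14, and for 48.3% of all genes, with a median of -0.008. Of 15 pan-neuronal markers, 13 had a positive and 2 a negative difference, with a median of 0.18. The direction was thus not particular to receptor genes. The intervals leave room for sizeable differences: for Gabrb2 the value was 0.44 (-0.25 to 1.13) and for Gria2 0.29 (-0.05 to 0.63). For Gabbr1, at 0.04 (-0.13 to 0.22), Gabrg3, at -0.03 (-0.22 to 0.16), and Grid1, at 0.03 (-0.16 to 0.23), the interval ended within 0.23 on either side.

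Set against sham, the Pushen group had 6 lower receptor genes of 39 (15.4%), where 2.73% of all genes were lower and 13.5% higher (edgeR adjusted p under 0.05), and 21 at an unadjusted p under 0.05 (31.9% of all genes). Among the 6 were Gabrg3 (-0.48 ± 0.08, adjusted p = 0.00541), Gabbr1 (-0.32 ± 0.08, 0.022), Grin2a (-0.61 ± 0.15, 0.0247), Gabrd (-0.41 ± 0.10, 0.0266) and Gabra4 (-0.38 ± 0.11, 0.0492), by edgeR and with libraries apart from sham. Of the 6, Gabrg3 alone was called each time 1 library was left out, but not when values were centred within bins of transcript length (0.0963). Grin2a was lost without any 1 of the sham or Pushen libraries (edgeR adjusted p 0.0522 to 0.0865), Gabbr1 without Sham 1, Sham 3, Pushen 1 or Pushen 2 (0.0679 to 0.0951), and Gabrd without Sham 1, 2 or 3, Pushen 1 or Pushen 2 (0.0668 to 0.107). Gabra4 was lost without Sham 1, Sham 2, PT 2, Pushen 1 or Pushen 2 (0.063 to 0.152). The count itself moved from 1 without Sham 1 or Pushen 2 to 17 without PT 1. Among all genes it moved too, with 113 lower without Sham 1, 100 without Pushen 2 and 1168 without PT 1. Of the 6, 5 had also been called in PT, a comparison that shares the sham libraries, and Gabrd had not. A call in PT and none in Pushen is no test of their difference, which is the second comparison.

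Genes that work with the receptors were read from 5 lists. Of 32 genes for scaffolds and auxiliary subunits of glutamate receptors, 12 were lower in PT and 2 higher, beside 11.8% and 19.1% of all tested genes, with a median of -0.29. Neto1, an auxiliary subunit of kainate receptors, was at -0.68 ± 0.11 (edgeR adjusted p = 0.00266), the AMPA auxiliary stargazin, Cacng2, at -0.57 ± 0.11 (0.00625), the scaffold proteins Dlgap1 at -0.56 ± 0.13 (0.0124) and Dlg3 at -0.36 ± 0.08 (0.0131), and Nsf, which stabilises AMPA receptors at the membrane, at -0.57 ± 0.15 (0.0194). The risers were Homer3, a scaffold of group I metabotropic receptors, at 1.33 ± 0.26 (0.00587), and Cacng5 at 0.76 ± 0.23 (0.0354). The call of Dlg3 was lost without Sham 2 (0.0522), that of Nsf without Sham 1 or Sham 2 (0.0567 to 0.062) and that of Cacng5 without Sham 1, 2 or 3, PT 2 or PT 3 (0.0803 to 0.102).

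Of 18 genes for partners of GABA receptors, 5 were lower in PT and 2 higher (median -0.20), beside 11.8% and 19.1% of all genes. The scaffold gephyrin, Gphn, was at -0.32 ± 0.08 (edgeR adjusted p = 0.0136), Lhfpl4, an auxiliary subunit of GABA-A receptors, at -0.29 ± 0.06 (0.00892), and Ajap1, a binding partner of GABA-B receptors, at -0.38 ± 0.09 (0.0135). Gabarap, a trafficking and autophagy protein, was higher, 0.50 ± 0.11 (0.0106), as was the GABA-B auxiliary Kctd12, 0.50 ± 0.12 (0.0161). Calls of Gphn were lost without Sham 1 or Sham 2 (0.0513 to 0.0523), of Ajap1 without Sham 2 (0.0568) and of Kctd12 without Sham 2 or Sham 3 (0.0525 to 0.0601). Of 5 glycine receptor genes, 3 were tested and 2 fell, the beta subunit Glrb at -0.68 ± 0.14 (0.00815) and Glra2 at -0.69 ± 0.18 (0.0175). Glra2 was lost without Sham 1, Sham 2 or PT 1 (0.0501 to 0.0601).

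Genes of transmitter supply and clearance were called in both directions. Of 14 glutamate genes, 2 were lower and 4 higher in PT (median -0.17), near the 11.8% and 19.1% of all tested genes, so these counts show nothing particular to the list. The astrocyte glutamate transporter Slc1a3 (0.74 ± 0.10, edgeR adjusted p = 0.00114), glutamine synthetase Glul (0.46 ± 0.08, 0.00389), the glutamine carrier Slc38a2 (0.58 ± 0.11, 0.00545) and glutamate dehydrogenase Glud1 (0.29 ± 0.08, 0.0274) were higher. The neuronal transporter Slc1a1 (-0.49 ± 0.13, 0.0179) was lower. Of 11 GABA genes, 3 were lower and 2 higher (median -0.18). The GABA transporters Slc6a12 (1.91 ± 0.26, 0.0011) and Slc6a13 (1.17 ± 0.15, 0.000834), of meninges and vessels, were higher, and the synthetic enzymes Gad1 (-0.53 ± 0.10, 0.00457) and Gad2 (-0.32 ± 0.09, 0.0258) and the catabolic Aldh5a1 (-0.27 ± 0.08, 0.0315) were lower. The chloride exporter Slc12a5, which sets the driving force of GABA-A currents, was at -0.35 ± 0.14 (0.0956). Calls were lost for Slc1a1 without Sham 1 or Sham 2 (0.0575 to 0.063), Glud1 without Sham 1, Sham 2 or PT 1 (0.0634 to 0.0997), Gad2 without Sham 1, Sham 2 or PT 2 (0.0739 to 0.0861) and Aldh5a1 without any sham library, PT 1 or PT 2 (0.0534 to 0.104). Astrocyte markers, Slc1a3 among them, were also higher, as given above. Between Pushen and PT, none of the tested genes of the 5 lists was called by edgeR (0.0% of all genes).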

How the data were processed

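RNA from 9 mouse brain libraries was sequenced after preparation with an Illumina TruSeq kit from 1 ug of total RNA, per the labels' protocols. The authors deposited 1 table with raw read counts per gene and library. FPKM per gene and library stand beside them, also deposited, scaled by library size and by transcript length. Bowtie 0.12.2 and build mm8 are named in the submitters' processing notes. The table's coordinates nevertheless match GRCm38, since 94.2% of gene identifiers found in GENCODE M21 carry identical bounds there. How reads were counted, and whether by strand, is not stated in those sources. Each of the 18 value columns was tied to a library through its name, and 0 were left unused.

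A gene entered the test on counts if its mean was 0.5 FPKM or more, and the test was made with edgeR 4.0.16 (TMM scaling, quasi-likelihood, all 9 libraries in 1 fit, R 4.3.3), with Benjamini-Hochberg adjustment over all 16740 genes. The standard error of a log2 fold change is its size over the root of its F statistic. DESeq2 1.42.0, limma 3.58.1 on log2(FPKM + 0.5), other scalings and filters, a replicate block and the omission of libraries served as alternatives. The fitting script was tested on simulated data. Levels are FPKM, which allow comparison between genes. No replicates agreed within sampling noise (the chi-square per gene was at least 38.1). Receptor genes called in any comparison are shown in every library, and in each other list up to 6 genes of smallest p in PT plus those called against the majority. Results for some of the genes are not reported here. The genes and lists were chosen with earlier results of these data known.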

Additional observations from a re-analysis of the deposited data

How the results depend on the processing

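The count of 22 falls in PT stayed within 1.5 times under RLE factors, library size alone, other filters, DESeq2, limma and the compared groups alone, with 17 to 25 falls. Among all genes these settings gave 1424 to 2654 falls. The rise, of Gabrr2, was not called without an FPKM filter (edgeR adjusted p = 0.107) or with filterByExpr (0.0605), where the 1 higher gene is Gabre, not tested otherwise. No gene was higher (0) at a mean FPKM of at least 1, where Gabrr2 is not tested, with limma on log2(FPKM + 0.1), with the compared groups alone, without PT 1 and Pushen 2 together, and when values were centred within bins of transcript GC content or length, 2 settings added after the data were seen. Scaling to pan-neuronal transcripts left 6 calls, 2 lower and 4 higher, beside 102 lower and 9299 higher of all 16740 genes. Among reported genes called on either scale, the log2 value turned positive for Gria3 (0.0116), Grm3 (0.14), Gabbr1 (0.15), Grin1 (0.16), Gabra4 (0.0113), Gabrb1 (0.12), Grin2b (0.0365), Grik4 (0.12), Grin3a (0.047), Grid1 (0.38), Gabrg3 (0.0828), Grm7 (0.0768) and Grm4 (0.45). Genes that turned but were called on neither scale, such as Gria1, are not listed. The construction of this scale subtracts the fall of the pan-neuronal markers. In Pushen against sham it left 0 lower and 1 higher, 1 call in all, with Gabbr1 at 0.0341, beside 22 lower and 4445 higher of all genes. There DESeq2 gave 14 calls (13 lower, 1 higher), the compared groups alone 17, and no FPKM filter and filterByExpr 1 higher gene each. Among all genes, DESeq2 called 1104 lower and 2802 higher, and the compared groups alone 1239 lower and 2414 higher. Without an FPKM filter 2295 of all genes were higher, and with filterByExpr 2626. The cause was not tested. Leaving out 1 library gave 13 to 25 lower, 0 to 1 higher and 13 to 26 calls in PT, and 1 to 17 in Pushen, with 0 to 0 higher. Among all genes, 782 to 2441 were then lower in PT and 84 to 1168 in Pushen. Replicate numbers did not pair the libraries: correlations of same-numbered libraries ran from -0.22 to 0.099. With the replicate block there were 20 lower and 0 higher genes in PT and 2 lower genes in Pushen, 2 calls in all, against sham, and 0 against PT. Among all genes the block gave 1452 lower and 2814 higher in PT against sham. In Pushen it gave 242 lower and 1866 higher against sham, and 0 calls against PT. Members with few counts, such as Gabrr2, are limited by depth, and the abundant ones by the spread of 3 libraries.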

Other observations

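Transcript base composition and length were set beside the receptor values. Across the 39 tested genes, the Spearman correlation of transcript GC content with the log2 fold change was 0.49 in PT against sham and -0.41 in Pushen against PT. Across all tested genes with a transcript it was 0.25 and -0.35. For transcript length the receptor genes gave -0.16 and 0.16, and all genes -0.17 and 0.12. These are correlations across genes of the same libraries, and genes are not independent replicates. With values centred within bins of GC content, 20 receptor genes were called lower in PT, Gabrb1 (edgeR adjusted p = 0.124) and Grm3 (0.0607) being lost. Within bins of length 18 were, and Gabrg3 (0.244), Gabrb1 (0.184), Grik4 (0.122) and Grik3 (0.0986) were lost. Among all genes with a transcript, 2220 were lower within bins of GC content and 2146 within bins of length.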
